A study of Bos taurus and other sequences with 9 samples.

Results

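The let-7 family was followed through 5 cell culture media as its 8 members hsa-let-7a-5p, hsa-let-7b-5p, hsa-let-7c-5p, hsa-let-7d-5p, hsa-let-7e-5p, hsa-let-7f-5p, hsa-let-7g-5p and hsa-let-7i-5p, written below without the prefix. The members were taken by name from the miRNA table, and all 8 were present among its 425 miRNAs. Small ncRNA had been sequenced from an extracellular vesicle (EV) isolate of 9 media samples. The paper did not show that this RNA was bound to EVs, and holds that RNA outside EVs was likely present too. Regular FBS, commercial depleted FBS (SBI-dFBS), ultracentrifugation EV-depleted FBS (UC-dFBS) and ultrafiltration EV-depleted FBS (UF-dFBS) had 2 samples each, and the defined serum- and xeno-free medium StemPRO had 1. All serum media were DMEM/F12 with the same share of serum. Sample 1 of FBS, of UC-dFBS and of UF-dFBS came from one serum lot of Sigma-Aldrich (the Sigma serum), and sample 2 of each came from one lot of Gibco. The SBI-dFBS samples were 2 lots of System Biosciences, whose starting serum is not given. The SD between the 2 samples of a medium therefore includes the difference between sera or lots, and it can include technical spread. All media contained antibiotics, and none had held cells.

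Let-7 miRNAs are among the most conserved and most abundant miRNAs of differentiated animal tissues. They are cut from hairpin precursors by Drosha and Dicer, loaded into Argonaute and guided by a shared seed to mRNAs such as those of RAS, HMGA2, MYC and LIN28, and LIN28 in turn blocks their maturation. They are known from blood cells, plasma and EVs, so that let-7 of serum can be taken for let-7 of cultured cells. The mature members differ from each other by very few bases, and cow and human let-7 are very similar. The miRNAs of the table carry human names although the serum is bovine, and how a read that matched several members was placed is not given in the sources used here. The split between close members, in particular let-7a-5p, let-7c-5p and let-7f-5p, is thus less certain than their sum. In the cow gene table of RefSeq (assembly ARS-UCD2.0), 11 genes encode the 8 members, 3 of them let-7a and 2 let-7f. Reads of such copies cannot be told apart once the mature miRNA is cut.

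Depth differed widely. StemPRO had the fewest small ncRNA counts (6679) and UF-dFBS-1 the most (6867736), while the miRNA counts lay between 937 for UF-dFBS-2 and 203755 for FBS-1. The 8 members together held 38851 and 34092 of these in FBS. They held 5041 and 4446 in the SBI-dFBS pair, and 7517 and 4001 after ultracentrifugation. After ultrafiltration 221 and 136 counts were left, and StemPRO had 222. Levels are given below as spike-in normalized counts, for which the authors scaled every sample by a factor derived from added external RNAs. The factor lay between 3.78 and 9.04 counts per unit for FBS and both other media with more miRNA, SBI-dFBS and UC-dFBS, whereas it was 55.2 and 24.0 for UF-dFBS and 108 for StemPRO. All 8 members of a sample share it, so that an error in the factor moves them together.

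In untreated FBS the summed let-7 level was 8020 spike-in normalized counts for the Sigma serum and 4573 for the Gibco serum. Let-7a-5p, the member with the most gene copies, had 2755 and 1669. Let-7f-5p had 1892 and 1224, and let-7b-5p 1740 and 952. These 3 members ranked between 2 and 6 among all miRNAs of both FBS samples. Let-7i-5p, which is transcribed alone from a locus of its own, had 885 and 365, and let-7c-5p had 455 and 194. The least abundant members were let-7e-5p with 146 and 83.2, let-7g-5p with 106 and 64.9, and let-7d-5p with 41.5 and 20.8. The order of the members was the same in both FBS samples. The ranges over the 2 samples overlapped between let-7a-5p and let-7f-5p, let-7f-5p and let-7b-5p, let-7i-5p and let-7c-5p, and let-7e-5p and let-7g-5p, since every member was higher in FBS-1. These levels are scaled read counts and were not divided by length. The authors also kept inserts shorter than a mature miRNA, so a read can be a fragment. The ligation of adapters can favour some sequences, and the order is one of reads.

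**Figure D1:**
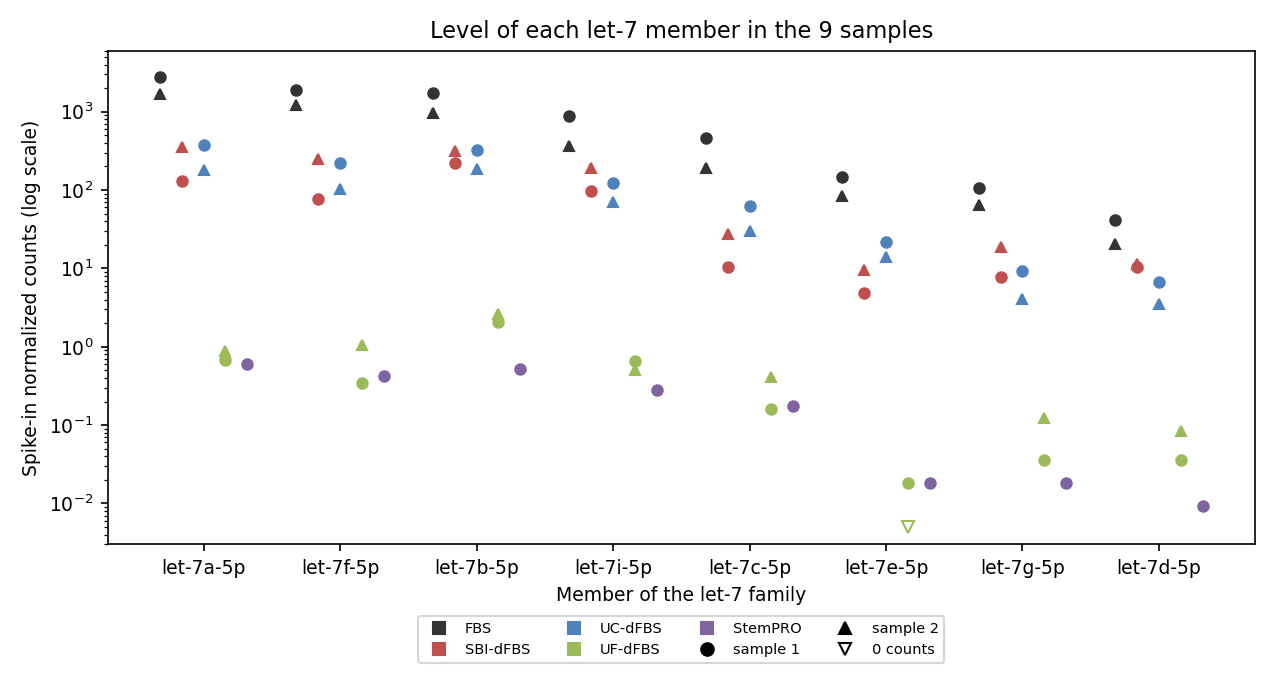
Spike-in normalized counts of the 8 let-7 members (log scale), ordered by their mean in FBS, in each of the 9 samples, with circles for sample 1 and triangles for sample 2 of a medium and an open triangle for 0 counts. Each member was lower in both SBI-dFBS and both UC-dFBS samples than in both FBS samples, and let-7a-5p lay between 0.611 and 0.874 in UF-dFBS and StemPRO.

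The first comparison set let-7 in SBI-dFBS against FBS. The starting serum of SBI-dFBS is not given, so its depletion and a difference between sera cannot be told apart. The summed level was 557 in SBI-dFBS-1 and 1177 in SBI-dFBS-2, with a mean of 867 ± 438 (SD, n = 2) against 6297 ± 2438 in FBS, or 86.2% ± 8.77 lower. The other miRNAs together were 1.92-fold lower, let-7 7.26-fold. The exact two-sided permutation test on the sum gave p = 0.333, the smallest value that 2 samples against 2 can give. All 8 members lay lower in both SBI-dFBS samples than in both FBS samples, which was so for 74.8% of the 163 miRNAs tested. In the edgeR quasi-likelihood test on the spike-in scale, all 8 members were lower (adjusted p under 0.05), as were 44.2% of the miRNAs tested. The median log2 change was -2.96 over the members and -1.70 over all miRNAs tested.

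The fitted differences of the members from FBS spanned a wide range, and differences between members were not tested on this scale. Let-7c-5p was measured at 10.4 and 27.3 in SBI-dFBS, a log2 change of -4.12 ± 0.74 (SE), with an adjusted p of 1.43e-06 in edgeR. Let-7e-5p was measured at 4.86 and 9.53, with a log2 change of -4.01 ± 0.68 and an adjusted p of 4.28e-07. These were the members with the lowest log2 changes, and both lots were far below both FBS samples. Let-7i-5p had 98.5 and 191 (log2 change -2.11 ± 0.76), and let-7b-5p 219 and 318 (-2.33 ± 0.88). Let-7d-5p was the least far below FBS, with 10.3 and 11.4 and a log2 change of -1.52 ± 0.65 (edgeR adjusted p 0.0437). Let-7a-5p, let-7f-5p and let-7g-5p changed by -3.20, -3.26 and -2.72 on the log2 scale. The order in SBI-dFBS was let-7b-5p, let-7a-5p, let-7f-5p, let-7i-5p, let-7c-5p, let-7g-5p, let-7d-5p and let-7e-5p. Neighbours in it overlapped except let-7i-5p with let-7c-5p and let-7d-5p with let-7e-5p. The number called depended on which sample was left out: 2 members, let-7c-5p and let-7e-5p, were still called without SBI-dFBS-1, and 5 were without FBS-1 or without SBI-dFBS-2, whereas all 8 were without FBS-2 or without either UF-dFBS sample. The call of let-7d-5p was also lost with DESeq2 on the same scale, without the filter on low counts, and without either UC-dFBS sample.

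The 2 lots were far apart for some members. From lot 1 to lot 2 the summed level differed by a factor of 2.11, that of let-7a-5p by 2.70 and that of let-7b-5p by 1.45. The other miRNAs together differed by 1.67, and miR-122-5p among them had 6517 in lot 1 and 11915 in lot 2.

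Ultracentrifugation was compared with FBS of the same sera. The summed let-7 level was 1150 in UC-dFBS-1 and 586 in UC-dFBS-2, a mean of 868 ± 398 (SD, n = 2) and 86.2% lower than in FBS (exact permutation p = 0.333, the smallest possible). Within the Sigma serum the decrease was 85.7% and within the Gibco serum 87.2%. The other miRNAs together were 4.67-fold lower and let-7 was 7.25-fold lower. MiR-122-5p held 54.5% to 59.6% of the miRNA counts in UC-dFBS and 28.9% to 46.1% in FBS. With miR-122-5p left out of the total, let-7 held a mean of 35.1% in UC-dFBS and 37.0% in FBS. All 8 members were lower in edgeR (largest adjusted p 0.00922), as were 90.8% of the 163 miRNAs, and both samples lay below both FBS samples for all 8 members and for 98.2% of the miRNAs. The members had a median log2 change of -2.76 and all miRNAs tested one of -2.70.

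The changes ranged from -3.68 to -2.41 on the log2 scale, beside -4.12 to -1.52 for SBI-dFBS. Let-7g-5p had 9.18 and 4.10 and a log2 change of -3.68 ± 0.66, let-7f-5p had 223 and 104 and a change of -3.25 ± 0.91, and let-7a-5p had 381 and 178 and a change of -2.98 ± 0.97. The other members changed by between -2.81 for let-7c-5p and -2.41 for let-7b-5p, which was measured at 323 and 183. Let-7i-5p was measured at 123 and 69.5, let-7c-5p at 62.7 and 29.6, let-7e-5p at 21.7 and 13.9, and let-7d-5p at 6.73 and 3.52. In UC-dFBS-1 let-7a-5p was the highest member and in UC-dFBS-2 let-7b-5p was. Without UC-dFBS-2, 3 members (let-7c-5p, let-7e-5p and let-7g-5p) were still called, and without FBS-1 the call of let-7b-5p was lost.

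SBI-dFBS and UC-dFBS held nearly the same summed let-7, 867 ± 438 and 868 ± 398. The median log2 difference of SBI-dFBS minus UC-dFBS was 0.04 over the members and 0.93 over all miRNAs tested. Of the 8 members, 0 differed between these media in edgeR (12.3% of the miRNAs did), and 1 had an unadjusted p under 0.05 (44 of the 163 miRNAs did). DESeq2 on the spike-in scale called 0 too. That member was let-7e-5p, with a log2 difference of SBI-dFBS minus UC-dFBS of -1.33 ± 0.63 (SE). Let-7c-5p differed by -1.31 ± 0.67, let-7d-5p by 1.08 ± 0.66 and let-7g-5p by 0.97 ± 0.62, and none of them passed the threshold after adjustment. Scaled to the miRNA pool in place of the spike-ins, let-7c-5p and let-7e-5p were called lower in SBI-dFBS (2 members with TMM and 2 with DESeq2). The share of all miRNAs called on that scale is not given here for this comparison.

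Ultrafiltration left the least let-7 of the FBS-based media. The summed level was 4.0 in UF-dFBS-1 and 5.66 in UF-dFBS-2, a mean of 4.83 ± 1.17 (SD, n = 2) and 99.92% or 1303-fold lower than in FBS, while the other miRNAs together were 438-fold lower. The exact permutation p was 0.333 against FBS and 0.0714 against the 6 other FBS-based samples, each the smallest that its design allows. All 8 members were lower than FBS in edgeR (largest adjusted p 1.19e-13), as were 98.2% of the miRNAs. They were lower than in UC-dFBS too (largest adjusted p 1.87e-09), as were 93.9%. Both UF-dFBS samples lay below both FBS samples for all 8 members (98.8% of the miRNAs) and below both UC-dFBS samples for all 8 (89.6%). Such small p-values rest on a spread that edgeR shares over all miRNAs, as each medium has 2 samples. The median log2 change against FBS was -10.15 over the members and -8.67 over all miRNAs tested, and the members ran from -12.43 ± 1.04 for let-7e-5p to -8.98 ± 0.94 for let-7d-5p. Fewer EVs, less RNA per EV and less RNA outside EVs cannot be told apart by these data. In preparations isolated by ultracentrifugation, the paper saw no vesicles in UF-dFBS by electron microscopy and no lipoprotein HDL by western blot. Particle tracking still gave a very low count there, and the paper calls UF-dFBS potentially almost free of EVs.

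Let-7b-5p had the highest level of the members after ultrafiltration. It held 115 counts in UF-dFBS-1 and 63 in UF-dFBS-2, or 2.08 and 2.62 spike-in normalized counts, and was 572-fold lower than in FBS. Let-7a-5p held 37 and 21 counts, or 0.670 and 0.874 spike-in normalized counts, and was 2865-fold lower. Let-7f-5p held 19 and 25 counts, or 0.344 and 1.04 normalized, and was 2251-fold lower. Let-7b-5p was thus above let-7a-5p and let-7f-5p in both samples, the reverse of FBS. Let-7i-5p, with 36 and 12 counts, was 1086-fold lower, and let-7c-5p, with 9 and 10 counts, 1121-fold lower. Let-7b-5p was the only member above 1 spike-in normalized count in UF-dFBS-1, and it and let-7f-5p were in UF-dFBS-2.

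The 3 least abundant members were at or near the limit of detection in UF-dFBS. Let-7e-5p was found with 1 count in UF-dFBS-1 and 0 in UF-dFBS-2, where the 95% Poisson interval of 0 counts reaches 0.154 spike-in normalized counts. Over both samples it was 9071-fold lower than in FBS, with a 95% Poisson interval from 1628 to 358289. Let-7g-5p had 2 and 3 counts and was 1352-fold lower (579 to 4165), and let-7d-5p had 2 and 2 counts and was 617-fold lower (241 to 2265). The intervals cover counting error only, and those of let-7d-5p and let-7g-5p overlap widely. The folds of these 3 members come from the counts pooled over both samples, whereas those of the other 5 are ratios of mean levels, and they should not be ranked against each other. In each UF-dFBS sample, 5 of the 8 members were above 3 counts.

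The decrease was found within each serum. In the Sigma serum let-7 was 99.95% or 2004-fold lower in UF-dFBS than in FBS (the other miRNAs 472-fold), and in the Gibco serum 99.88% or 808-fold (the other miRNAs 363-fold). Relative to UC-dFBS of the same serum, let-7 was lower by a factor of 287 and 104 and the other miRNAs by 91.8 and 97.9.

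Reads of let-7 were found in StemPRO, without a replicate and thus without a test. The paper proposes that a larger part of the miRNA reads of this medium may be noise of the experiment. The summed let-7 level of StemPRO was 2.05, or 3065-fold lower than the mean of FBS, with the other miRNAs together 2051-fold lower. Let-7a-5p had 66 counts (0.611 spike-in normalized counts), let-7b-5p 56 (0.518), let-7f-5p 46 (0.426), let-7i-5p 30 (0.278) and let-7c-5p 19 (0.176). These 5 members were all lower than their mean in UF-dFBS, but let-7c-5p and let-7f-5p lay within the range of the UF-dFBS samples. The 95% Poisson interval of let-7a-5p (0.472 to 0.777) overlapped those of UF-dFBS-1 (0.472 to 0.923) and UF-dFBS-2 (0.541 to 1.34). That of let-7i-5p (0.187 to 0.396) overlapped UF-dFBS-2 (0.258 to 0.873) and lay below UF-dFBS-1 (0.457 to 0.902). For let-7b-5p it (0.392 to 0.673) lay below UF-dFBS-1 (1.72 to 2.50) and UF-dFBS-2 (2.02 to 3.36). Let-7e-5p and let-7g-5p had 2 counts each and let-7d-5p had 1, so that their fold below FBS is known only between 1712 and 51058, 1276 and 38056, and 604 and 132907 (95% Poisson intervals). No member reached 1 spike-in normalized count. In the same sample miR-122-5p, a liver miRNA and the most abundant one of the FBS-based media, had 7 counts against 66 of let-7a-5p. In FBS-1 miR-122-5p had 93988 counts against 13343 of let-7a-5p. The StemPRO level depends on a spike-in factor of 108 counts per unit, the highest of the series. As a share of the miRNA counts, which needs no factor, let-7 of StemPRO was 0.664 times that of FBS.

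The share of the miRNA counts held by let-7 shows whether the family differed from FBS by more than other miRNAs did, and it does not use the spike-ins. FBS had shares of 19.1% (95% confidence interval by Wilson's method 18.9 to 19.2) and 27.4%. In SBI-dFBS let-7 held 5.82% and 7.25%, and after ultracentrifugation 14.8% and 15.2%. The UF-dFBS samples had 5.26% (4.62 to 5.97) and 14.5% (12.4 to 16.9), and StemPRO had 15.4% (13.7 to 17.4). Each depleted sample lay below both FBS samples, and the 2 UF-dFBS samples lay farther apart than their counting error. UF-dFBS minus the other 6 FBS-based samples was -5.04 percentage points, with an exact two-sided permutation p of 0.286. MiR-122-5p took between 28.9% and 73.4% of the miRNA counts in the FBS-based samples and so sets much of this share. Leaving it out of the total, let-7 held 37.0% ± 2.22 in FBS, 35.1% ± 2.22 in UC-dFBS, 22.7% ± 6.42 in SBI-dFBS, 19.1% ± 8.15 in UF-dFBS (SD, n = 2 each) and 15.5% in StemPRO. On that base UC-dFBS overlapped FBS, and SBI-dFBS and UF-dFBS lay below both.

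**Figure D2:**
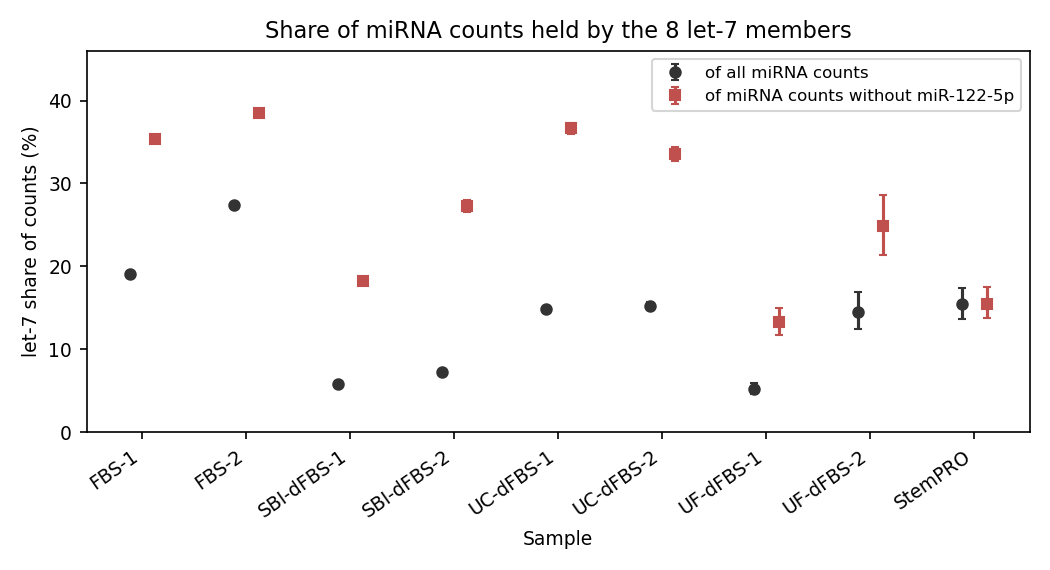
Share of counts held by the 8 let-7 members in each sample (%), with Wilson 95% confidence intervals, for all miRNA counts (circles) and for miRNA counts without miR-122-5p (squares). The share of all miRNA counts was highest in FBS-2 (27.4%) and lowest in UF-dFBS-1 (5.26%), and without miR-122-5p both UC-dFBS samples lay near FBS at a mean of 35.1%.

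Whether single members moved apart from other miRNAs was tested by edgeR with TMM scaling on the miRNA counts. On this scale a value of 0 means a change like that of the trimmed bulk of miRNAs, and the log2 change of all miRNAs tested had a median of 0.21 for SBI-dFBS, -0.08 for UC-dFBS and -0.59 for UF-dFBS. In SBI-dFBS, 2 of the 8 members were lower, against a background of 4.29% of the miRNAs. Let-7c-5p had a log2 change of -2.27 ± 0.55 and let-7e-5p one of -2.20 ± 0.53, both with an adjusted p of 0.0153. Relative to the median of all miRNAs the changes were -2.49 and -2.42. Let-7a-5p (-1.44 ± 0.47) and let-7f-5p (-1.53 ± 0.56) missed the threshold and were called too without the filter on low counts, with total miRNA counts as library size, or without either UF-dFBS sample, 4 members in each. Without SBI-dFBS-1 or without UC-dFBS-1, 0 members were called. Let-7d-5p was at 0.36 ± 0.52 and let-7i-5p at -0.24 ± 0.44.

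In UC-dFBS 0 members differed from the bulk of miRNAs, as did 0 of the 163 miRNAs tested (0%). An unadjusted p under 0.05 was found for 0 members and 9 miRNAs, and DESeq2 with its own size factors called 0 members as well. The values ran from -1.12 ± 0.56 for let-7g-5p to 0.21 ± 0.42 for let-7b-5p.

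In UF-dFBS 3 of the 8 members were lower than the bulk of miRNAs, against a background of 6.13%. These were let-7a-5p with a log2 change of -2.66 ± 0.51 (edgeR adjusted p 0.000843), let-7f-5p with -2.36 ± 0.61 (0.0108) and let-7e-5p with -4.35 ± 0.96 (0.00288), or -2.08, -1.77 and -3.76 after subtraction of the median of all miRNAs. With the serum as a block over the 6 paired samples, 5 members were called, let-7c-5p and let-7i-5p being the others. The share of all miRNAs called in that fit is not given here, so the 5 cannot be set beside the 6.13%. The same 6 samples without the block, a fit added after the data were seen, gave 3. Without UF-dFBS-1, 1 member was called, let-7e-5p, of which the remaining UF-dFBS-2 held 0 counts. Let-7b-5p, at -0.30 ± 0.43 (adjusted p 0.671), and let-7d-5p, at -0.34 ± 0.79, lay 0.29 and 0.24 above the median of all miRNAs. The calls of let-7a-5p and let-7f-5p beside the value of let-7b-5p are differences from the pool, and the difference between members was examined separately through their shares.

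**Figure D3:**
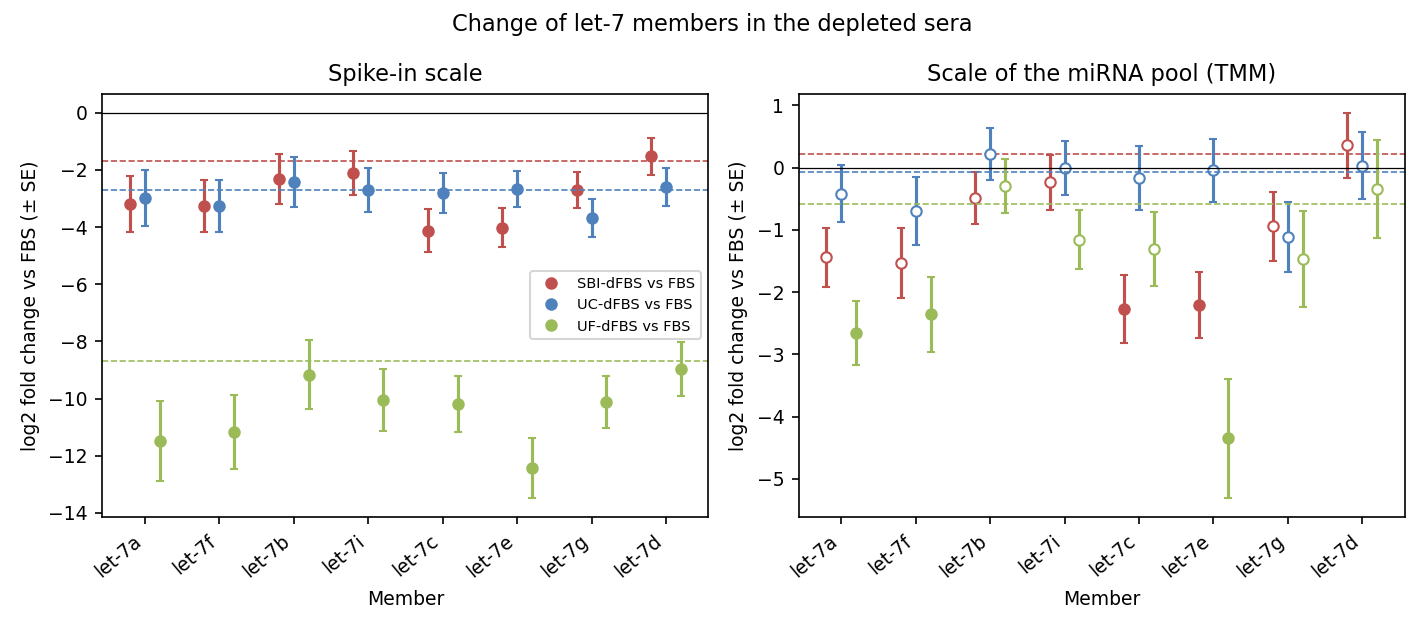
Log2 fold change against FBS of each let-7 member in SBI-dFBS, UC-dFBS and UF-dFBS, with its standard error, on the spike-in scale (left) and on the scale of the miRNA pool (right). Filled points passed the adjusted threshold and open points did not, and dashed lines are the medians of the 163 miRNAs tested. All members passed on the left, and on the right those that passed were let-7c-5p and let-7e-5p in SBI-dFBS and let-7a-5p, let-7f-5p and let-7e-5p in UF-dFBS.

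The make-up of the family, given by the share of each member in the let-7 counts of its sample, uses neither the spike-ins nor the other miRNAs. Let-7a-5p held 34.3% and 36.5% in FBS, and 33.1% and 30.4% after ultracentrifugation. It held 23.3% and 29.9% in SBI-dFBS, 16.7% and 15.4% after ultrafiltration and 29.7% in StemPRO. Let-7b-5p held 21.7% and 20.8% in FBS, and 28.1% and 31.2% after ultracentrifugation. Its share was 39.4% and 27.0% in SBI-dFBS, 52.0% and 46.3% after ultrafiltration and 25.2% in StemPRO. Both UF-dFBS samples thus had the lowest let-7a-5p share and the highest let-7b-5p share of the series. Let-7b-5p was 21.1 percentage points above the other 6 FBS-based samples and let-7a-5p 15.2 points below them (-15.2 as UF-dFBS minus the others). The exact permutation p was 0.0714 for each and for let-7e-5p, the smallest that 2 samples against 6 can give. After adjustment over the 8 members it was 0.190, so that 0 members passed. The UF-dFBS range lay within or across that of the other samples for let-7c-5p, let-7d-5p, let-7f-5p, let-7g-5p and let-7i-5p.

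**Figure D4:**
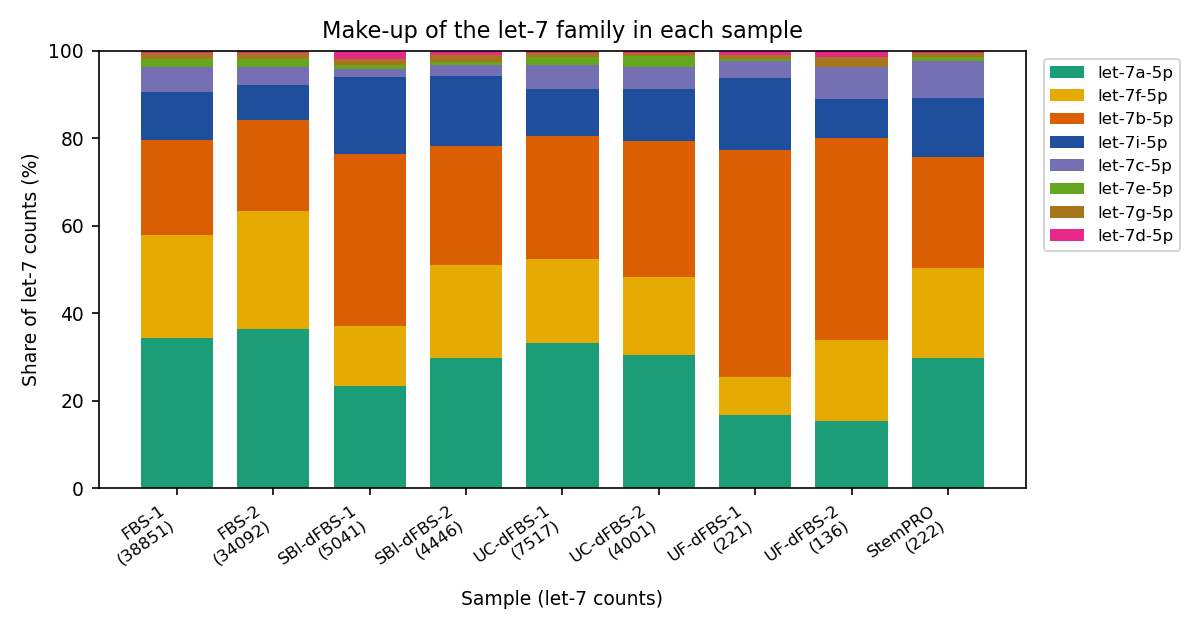
Share of each member in the let-7 counts of each sample (%), stacked to 100%, with the let-7 counts of the sample in parentheses. Let-7b-5p was the widest part of both UF-dFBS bars (52.0% and 46.3%), whereas let-7a-5p was the widest in both FBS bars (34.3% and 36.5%).

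Member ratios show the same counts pair by pair. The count of let-7b-5p over that of let-7a-5p was 0.632 (exact 95% interval 0.615 to 0.649) and 0.570 in FBS. SBI-dFBS had 1.69 (1.57 to 1.81) and 0.904, and UC-dFBS had 0.848 and 1.03. The ratio was 3.11 (2.13 to 4.63) and 3.00 (1.81 to 5.18) after ultrafiltration and 0.848 (0.583 to 1.23) in StemPRO. Every depleted sample was above both FBS samples in this ratio. The UF-dFBS intervals lay above the values of all other samples, and that of StemPRO held the values of both UC-dFBS samples, of SBI-dFBS-2 and of FBS-1. Let-7i-5p over let-7a-5p was 0.321 and 0.219 in FBS and 0.323 and 0.390 in UC-dFBS, with 0.757 and 0.542 for SBI-dFBS. It was 0.973 and 0.571 after ultrafiltration and 0.455 in StemPRO. Let-7f-5p over let-7a-5p was 0.514 and 1.19 after ultrafiltration and between 0.585 and 0.734 in the other 7 samples. Let-7c-5p over let-7a-5p was 0.080 and 0.078 in SBI-dFBS and at least 0.116 in all other samples.

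**Figure D5:**
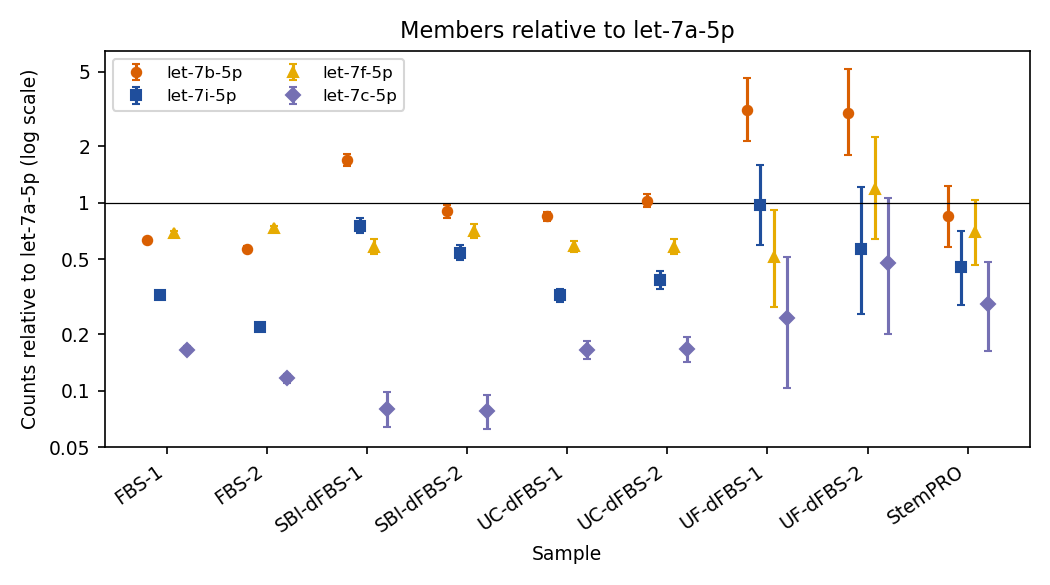
Counts of let-7b-5p, let-7i-5p, let-7f-5p and let-7c-5p relative to let-7a-5p in each sample (log scale), with exact 95% intervals for counting error. Let-7b-5p lay at 3.11 and 3.00 in UF-dFBS against 0.632 and 0.570 in FBS, and let-7c-5p was lowest in SBI-dFBS.

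The sera of both suppliers could be compared over FBS, UC-dFBS and UF-dFBS. The summed let-7 of the Sigma serum was 1.75 times that of the Gibco serum in FBS, against 2.81 for the other miRNAs together. MiR-122-5p, which sets much of the latter, had 19403 in FBS-1 and 4817 in FBS-2. After ultracentrifugation the let-7 ratio of the sera was 1.96 (other miRNAs 2.03), and after ultrafiltration 0.707 (other miRNAs 2.16). Let-7 was thus higher in the Sigma serum in FBS and UC-dFBS and lower in UF-dFBS, a difference between media that was not tested. In edgeR with the medium as a term, let-7c-5p, let-7d-5p, let-7e-5p, let-7g-5p and let-7i-5p were called higher in the Sigma serum (5 of 8, log2 difference 0.74 to 0.92, adjusted p 0.0344 to 0.0376), where 35.2% of 105 miRNAs were. Let-7a-5p, let-7b-5p and let-7f-5p differed by 0.61 ± 0.36, 0.51 ± 0.35 and 0.34 ± 0.37. The median log2 difference was 0.75 over the members and 0.62 over all miRNAs tested. These calls depended on the setting. With TMM, with DESeq2, without the medium as a term and without the filter on low counts 0 members were called, as without any one of the FBS or UC-dFBS samples, whereas all 8 were called without UF-dFBS-1 or UF-dFBS-2.

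Relatives of the family were examined from lists. MiR-98-5p shares the seed of let-7 and lies beside a let-7f gene in the cow. It was measured at 45.0 and 14.0 in FBS and at 1.44 and 7.41 in SBI-dFBS. It had 6.42 and 2.2 after ultracentrifugation, 0 and 0.0416 after ultrafiltration and 0.00926 in StemPRO. Its log2 change was -2.80 ± 0.72 in SBI-dFBS (edgeR adjusted p 0.00113) and -2.77 in UC-dFBS (adjusted p 0.000438), near the medians of the 8 members, and it was found with 1 count in UF-dFBS.

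In the cow gene table let-7a-1, let-7f-1 and let-7d lie together, let-7a-3 with let-7b, let-7c with miR-99a, let-7a-2 with miR-100, and let-7e with miR-99b and miR-125a. Such miRNAs are known to be transcribed together. Of the 5 miRNAs listed as partners of let-7 members (miR-100-5p, miR-125b-5p, miR-99a-5p, miR-99b-5p and miR-125a-5p), 5 were tested, and on the spike-in scale 2 were lower in SBI-dFBS (44.2% of the miRNAs tested were), while all 5 were lower after ultracentrifugation (90.8%) and after ultrafiltration (98.2%). MiR-125a-5p, which shares the let-7e locus, had 5.99 and 5.63 in FBS and 0.553 and 0.529 in SBI-dFBS, a log2 change of -3.40 beside -4.01 for let-7e-5p. MiR-99b-5p of the same locus changed by -1.26 ± 0.96 and was not called. MiR-99a-5p, beside let-7c, had 30.1 and 25.6 in FBS and 10.8 and 11.4 in SBI-dFBS (-1.33 ± 0.65, not called), beside -4.12 for let-7c-5p. In FBS the mean level was 325 for let-7c-5p and 27.9 for miR-99a-5p, and 114 for let-7e-5p and 3.49 for miR-99b-5p. Whether miRNAs of one locus differed in their change was not tested. In UF-dFBS miR-100-5p was found with 46 counts in UF-dFBS-1 and 0 in UF-dFBS-2, so that its level there rests on 1 library.

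Passenger strands, the arms that are mostly discarded when the duplex is loaded, were nearly absent. Of the 10 listed, 6 were in the table, with 41 counts over all samples beside 94527 of the 8 members (0.0434%). UC-dFBS-1, UF-dFBS and StemPRO had 0 counts, which is below the floor of 3 counts per library and does not show absence. Let-7d-3p had the most, 4 and 6 counts in FBS, and let-7a-3p had 5 and 2.

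Across the 8 FBS-based samples pairs of members were correlated on the log2 scale, with Pearson's r from 0.955 to 0.998 over 28 pairs. The points share the spike-in factor and the large step to UF-dFBS, and r over the 72 other abundant miRNAs with the let-7 sum had a median of 0.975, so that the value is high for most miRNAs. The 3 miRNAs most like the let-7 sum were miR-126-5p of endothelium (r = 0.998), miR-103a-3p (0.998) and miR-30a-5p (0.997). MiR-126-5p was measured at 278 and 181 in FBS, at 35.8 and 18.0 after ultracentrifugation, at 16.4 and 27.5 in SBI-dFBS and at 0 in both UF-dFBS samples.

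Markers of possible source cells were summed in the same way. The level relative to FBS in SBI-dFBS was 0.138 for let-7 and 0.0789 for 3 vessel wall miRNAs (miR-126-3p, miR-143-3p, miR-145-5p). It was 0.152 for 3 miRNAs of white cells and platelets (miR-223-3p, miR-142-3p, miR-150-5p) and 0.577 for 3 red cell miRNAs (miR-451a, miR-486-5p, miR-144-3p). For miR-122-5p of liver it was 0.761. In UC-dFBS it was 0.138 for let-7, 0.154, 0.0871, 0.0706 and 0.278 in the same order. In UF-dFBS it was 0.000767 for let-7, and 0.00038, 0.000361, 0.00313 and 0.00257. MiR-142-3p made up most of the white cell and platelet sum in FBS (2759 and 821) and in SBI-dFBS (120 and 494). The other members of that list lay further below FBS in SBI-dFBS. MiR-223-3p had 308 and 201 in FBS and 3.98 and 6.35 in SBI-dFBS, and miR-150-5p 15.3 and 10.3 against 0.111 and 0.529. Of the vessel wall list, miR-145-5p had 68 counts in UF-dFBS-1 and 1 in UF-dFBS-2, so that the value of that list after ultrafiltration rests largely on 1 library. In edgeR, 0 of 3 red cell miRNAs were lower in SBI-dFBS, while 3 of 3 white cell and platelet miRNAs and 2 of 3 vessel wall miRNAs were, beside 44.2% of the miRNAs tested. In UF-dFBS 1 marker of the red cell list (miR-144-3p) and 1 of the white cell and platelet list (miR-150-5p) had 0 counts in both samples. The summed level of the red cell list was 211 to 273 in FBS and 0.597 to 0.916 in UF-dFBS, that of the white cell and platelet list 1031 to 3082 and 0.708 to 0.779, and that of the vessel wall list 1636 to 3454 and 0.25 to 1.68. The part of these cells in the let-7 levels was not tested.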

How the data were processed

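Small ncRNA of an EV isolate of 9 media samples, which can also hold RNA outside EVs, was obtained with the exoRNeasy kit. It was sequenced with the QIAseq miRNA kit, whose adapters hold unique molecular indices (UMIs). Per the labels the authors used cutadapt 1.11, Bowtie2 2.2.2 and GRCh37. Reads with a full UMI were collapsed and those with a partial UMI kept as they were, then matched to mature miRNAs without mismatch and then to the genome with a mismatch allowed. The deposited counts are reads per miRNA after this step, without normalization. A further deposited table holds a signal, the spike-in normalized counts, for which the authors scaled every sample by the slope of its spike-in reads on spike-in concentration. The ratio of both was constant within each sample, and gave the factor used here. Since spike-in reads were not analysed here, the error of the factor is not included.

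The spike-in scale used the factors as library sizes in edgeR 4.0.16 (quasi-likelihood test in R 4.3.3, adjusted by Benjamini-Hochberg over all miRNAs tested, threshold 0.05). The 8 FBS-based samples and the 163 miRNAs with 10 or more counts in 2 or more samples were fitted. The scale of the miRNA pool used TMM. The fit of the sera held 6 samples, the medium as a term and 105 miRNAs with 10 or more counts in 3 or more samples. SE is the log2 change divided by the root of F. Single values were compared by exact two-sided permutation tests (scipy 1.17.1), and StemPRO was not tested. DESeq2 1.42.0, other filters, the serum as replicate block and each sample left out were the alternatives. Intervals are 95% Wilson, exact binomial or Poisson and cover counting error only, with a floor of 3 counts. The fit of UC-dFBS minus FBS was checked on simulated data, which bears on that contrast only, and a p that misses the threshold does not show that a member did not differ.

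The same serum lot was used for same-numbered samples of FBS, UC-dFBS and UF-dFBS, according to the methods and the supplier label, which pairs them. Across 131 miRNAs, the log2 difference of sample 1 minus sample 2 correlated with r = 0.636 for FBS with UC-dFBS, 0.0984 for FBS with UF-dFBS and -0.0387 for UC-dFBS with UF-dFBS. Named miRNAs were the 8 members, lists of related and marker miRNAs given in full, miR-122-5p and the 3 miRNAs most correlated with the let-7 sum on log2(level + the level of 1 count), among 72 abundant ones. Members and lists were chosen with earlier results of these data known. The table of other small ncRNAs was used for total counts only, and mature sequences are not printed here.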

Additional observations from a re-analysis of the deposited data

How the results depend on the processing

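On the spike-in scale the 8 members kept their direction and their calls in UF-dFBS, against FBS and against UC-dFBS, with DESeq2 on the same factors, with both other filters and with the serum as replicate block (8 members in each), and without any 1 sample (8 to 8). The block changed no call in UC-dFBS (8 members) and moved the count of members below the miRNA pool in UF-dFBS from 3 to 5, while the same 6 samples without it, a fit added after the data were seen, gave 3. How many of all miRNAs were called below the pool with the block is not given here, so the move is not a result about let-7 alone. Leaving out 1 sample gave 2 to 8 members in SBI-dFBS and 3 to 8 in UC-dFBS. On the scale of the miRNA pool TMM and DESeq2 with its own size factors asked another question and gave 2 and 2 members lower than FBS for SBI-dFBS, 0 and 0 for UC-dFBS and 3 and 3 for UF-dFBS. They gave 2 and 2 for UF-dFBS against UC-dFBS, and 2 and 2 between SBI-dFBS and UC-dFBS, both without a share over all miRNAs. There the log2 change of let-7d-5p in SBI-dFBS turned to 0.36 with TMM and 0.21 with DESeq2, that of let-7b-5p in UC-dFBS to 0.215 and 0.0582, that of let-7d-5p in UC-dFBS to 0.0308 with TMM, and the serum difference of let-7e-5p and let-7g-5p to -0.0177 and -0.0151 with TMM.

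The count of members below the miRNA pool in SBI-dFBS was 4 with total miRNA counts as library size, 4 without a filter, and 0 to 4 without 1 sample, and in UF-dFBS it was 1 to 3 without 1 sample. Members higher in the Sigma serum numbered 0 with TMM, 0 with DESeq2, 0 without the medium as a term, 0 without a filter, and 0 to 8 without 1 sample. The ratio of StemPRO to FBS was 0.00609 for raw counts, 0.664 for the share of miRNA counts and 1.00 for the share of all small ncRNA counts, against 0.000326 on the spike-in scale, and 0.000256 to 0.000449 without either FBS sample. The let-7 share of miRNA counts in UF-dFBS minus the other samples was -9.67 to -0.414 percentage points without 1 sample. Except for changes set by the scale itself or by fewer samples, the cause was not tested. Depth limits let-7d-5p, let-7e-5p and let-7g-5p in UF-dFBS and StemPRO, where each had 3 counts or fewer in each library.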
